A study of Homo sapiens with 12 samples.

Results

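The SR proteins are a family of RNA-binding splicing factors, and 10 of their genes were followed here: SRSF1, SRSF2, SRSF3, SRSF4, SRSF5, SRSF6, SRSF7, SRSF9, SRSF10 and SRSF11. Members were found by matching the Ensembl gene IDs of the deposited tables to symbols, and all 10 passed the filter on low counts, among 16999 tested genes of 57820 gene IDs. Of 56092 splicing events in the deposited event tables, 116 belonged to these genes, and 88 of them had enough reads to be tested. The cells were AsPC-1, an established human pancreatic cancer line, transfected either with a scrambled siRNA (siControl) or with an siRNA against ARNT (siARNT). ARNT encodes HIF-1β, the partner that the oxygen-regulated HIF-α subunits need in order to bind DNA. Each siRNA was combined with 21% oxygen (normoxia) or with 1% oxygen for 24 h (hypoxia), and RNA was taken 48 h after transfection. This gave 4 groups of 3 libraries, with replicates lettered A, B and C. All groups share the line and a transfection, so no group was untransfected. Transfected wells were divided between plates the next day, and the labels do not say that the replicates are independent experiments, so p-values measure the spread between these samples.

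SR proteins bind exonic enhancer sequences through RNA recognition motifs and recruit the spliceosome through a domain rich in arginine and serine, which SRPK and CLK kinases phosphorylate. Many SR genes control their own level. Their genes carry ultraconserved segments with a "poison" exon or a retained intron, whose inclusion brings in a premature stop codon and so marks the transcript for nonsense-mediated decay, the pathway that removes mRNAs whose stop lies well upstream of the last exon junction. A poison event is taken here as a splicing event whose inclusion or retention form was found in GENCODE 29 only in transcripts outside the protein-coding class, while its other form was found in at least 1 protein-coding transcript. There were 14 such events, and all 14 passed the read filter: 5 in SRSF7, 2 each in SRSF4, SRSF5 and SRSF11, and 1 each in SRSF2, SRSF3 and SRSF6. SRSF1, SRSF9 and SRSF10 had none by this definition. For the 109-nt exon of SRSF11, the SRSF5 introns and the SRSF7 alternative 5′ ends, the inclusion transcripts carry no annotated stop codon. A premature stop is thus not annotated for these events.

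The coding part of 6 poison cassette exons is shown from its first base to the premature stop, since the stop is what separates the poison transcript from the coding one. The sequences are those of GENCODE 29 transcripts (GRCh38), 5′ to 3′, with the stop codon in capitals.
SRSF3, 456-nt exon, chr6:36599821-36600276, plus strand: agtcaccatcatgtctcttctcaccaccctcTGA
SRSF4, 195-nt exon, chr1:29159864-29160058, minus strand: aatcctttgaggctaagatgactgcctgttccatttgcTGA
SRSF6, 268-nt exon, chr20:43459153-43459420, plus strand: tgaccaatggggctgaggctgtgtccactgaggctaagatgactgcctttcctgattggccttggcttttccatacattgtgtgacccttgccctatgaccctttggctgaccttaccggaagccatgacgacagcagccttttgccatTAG
SRSF7, 276-nt exon, chr2:38748898-38749173, minus strand: ggcagaaaatttgagacggTGA
SRSF7, 449-nt exon, chr2:38748898-38749346, minus strand: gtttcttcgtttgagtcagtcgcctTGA
SRSF11, 117-nt exon, chr1:70231859-70231975, plus strand: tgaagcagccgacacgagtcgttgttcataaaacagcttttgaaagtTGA

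In these 6 exons the stop began between base 20 and base 150 of the exon, and it lay 154 to 697 bases upstream of the last exon junction of the annotated transcript. TGA was the stop in 5 of the 6 exons, and TAG was the stop in SRSF6. The coding parts had little sequence in common: among the 15 pairs the longest shared run was 3 to 7 bases in all pairs but one. The exception was the pair SRSF4 and SRSF6, members of the same branch of the family, whose coding parts share the 20-base run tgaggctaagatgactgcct. The SRSF7 exons of 276 and 449 nt end at the same 5′ splice site and differ in their start. The 104-nt poison exon of SRSF2 (chr17:76735772-76735875, minus strand) is of another kind: it lies after the stop codon, which is in the exon before it, 209 bases upstream of the last junction. The events carry coordinates of an assembly that the files do not name and that does not match GRCh38, so exons were matched by their size, and positions are given on GRCh38 from GENCODE 29.

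Gene counts summed to 38.5 M to 84.3 M reads per library. ARNT, the target of the siRNA, lay at 60.7 to 72.2 CPM (gene counts scaled to a common library size) in the 6 siControl libraries and at 12.83 to 15.99 CPM in the 6 siARNT libraries. The epithelial markers were present, with a summed level of 5872 to 10050 CPM by total counts, and the summed levels of 4 immune and 2 endothelial markers stayed at or under 1.05 CPM. The epithelial marker KRT7 was low, at 1.095 to 4.013 CPM. COL1A1 and COL1A2, which define fibroblasts, had at most 8 and 10 counts in a library, yet LUM, which fibroblasts also express, was at 335 to 592 CPM, with group means of 426 and 578 CPM in normoxia and hypoxia with siControl and of 381 and 412 CPM with siARNT. LUM was thus highest in the group that also stood apart for SRSF11 and for several poison events below, and its part in those results was not tested. The libraries differed in how the count depended on base composition. The slope of a gene's deviation on its GC content ran from -0.20 to 0.40 on the log2 scale per 10 points of GC, and the highest was that of Normoxia siARNT B. The 10 SR genes have a GC content of 36.6% to 45.6%, all under the median of 47.7% of tested genes.

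Levels per kilobase of annotated exon ordered the genes as SRSF1, SRSF2, SRSF6, SRSF7, SRSF3, SRSF9, SRSF11, SRSF5, SRSF4 and SRSF10. SRSF1, which activates exons and influences the choice of 5′ splice sites, was at 78.2 to 106 CPM per kb. SRSF10, which represses splicing when dephosphorylated, was at 3.61 to 4.87 CPM per kb. Ranges over the 12 libraries overlapped between the neighbours SRSF1 and SRSF2, SRSF2 and SRSF6, SRSF7 and SRSF3, SRSF9 and SRSF11, and SRSF11 and SRSF5. The ranges of SRSF6 and SRSF7, of SRSF3 and SRSF9, of SRSF5 and SRSF4, and of SRSF4 and SRSF10 did not overlap. The exon lengths take in every annotated exon of a gene, retained introns included, so long noncoding models lower the value.

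**Figure D1:**
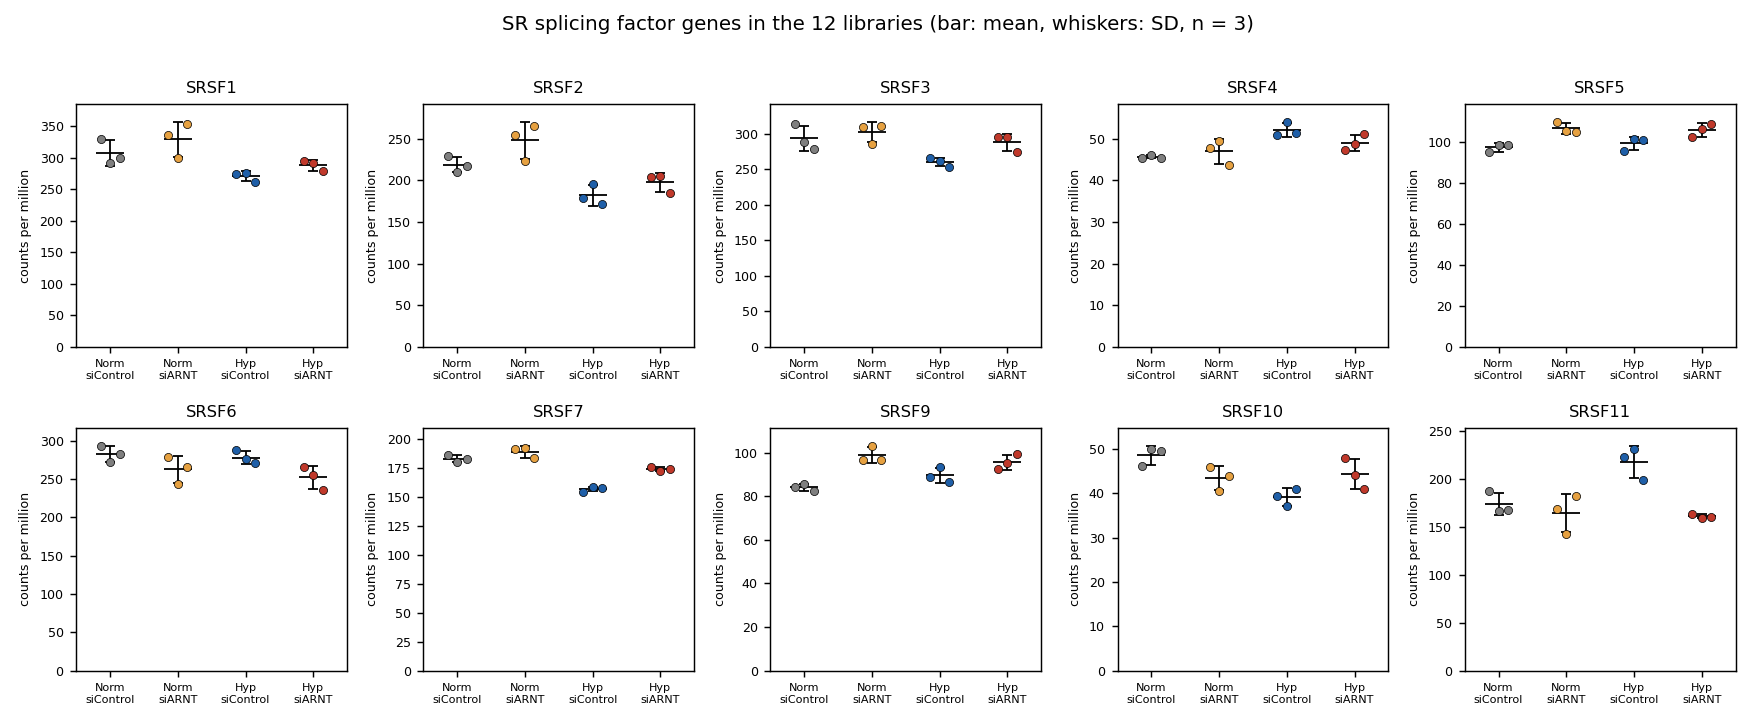
CPM of the 10 SR genes in the 12 libraries, with points for single libraries, a bar for the group mean and whiskers for the SD (n = 3). The SRSF7 libraries of hypoxia with siControl lie at 154 to 158 CPM, under the other 3 groups, and those of SRSF11 lie at 200 to 231 CPM, above the other 3 groups.

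The first comparison asked what 24 h of hypoxia did in siControl cells. Of the 10 genes, 3 fell and 2 rose, where 25.3% of all tested genes were called (14.9% lower, 10.4% higher; edgeR's quasi-likelihood test with Benjamini-Hochberg adjustment over 16999 genes, adjusted p under 0.05). SRSF2, SRSF7 and SRSF10 fell, and SRSF4 and SRSF11 rose. All 5 changes were under 0.5 on the log2 scale. The median of the 10 genes was -0.10, beside 0.02 over all tested genes. In 8 of the 10 genes the 3 hypoxic and the 3 normoxic libraries did not overlap, where 46.8% of all genes had no overlap.

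SRSF10 was at 46.1, 50.02 and 49.5 CPM in normoxia and at 39.3, 37.1 and 41.0 CPM in hypoxia. Every hypoxic library was under every normoxic one, and the gene fell by 0.31 ± 0.07 (SE) on the log2 scale (edgeR, adjusted p = 0.00918). SRSF2, a component of nuclear speckles that binds exonic enhancers, was at 229, 210 and 218 CPM in normoxia and at 180, 195 and 171 CPM in hypoxia. It fell by 0.27 ± 0.08 (adjusted p = 0.0239, edgeR), again with no overlap. SRSF7, which also serves as an adaptor for mRNA export, was at 186, 180 and 183 CPM in normoxia and at 154, 158 and 157 CPM in hypoxia. It fell by 0.22 ± 0.05 (adjusted p = 0.00349, edgeR), and this was the smallest adjusted p of the 10 genes.

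SRSF11, an SR-related protein of the early spliceosome, was at 187, 167 and 167 CPM in normoxia and at 223, 231 and 200 CPM in hypoxia. All hypoxic libraries were higher, and the gene rose by 0.33 ± 0.09 (edgeR, adjusted p = 0.0174). SRSF4, a large SR protein with a long arginine-serine domain, was at 45.5, 46.1 and 45.5 CPM in normoxia and at 51.0, 54.0 and 51.3 CPM in hypoxia, a rise of 0.19 ± 0.06 (adjusted p = 0.0374, edgeR). The same letter marks libraries that deviate together in these siControl groups, and with the letter within each siRNA as a replicate block the adjusted p was 0.0552 for SRSF2 and 0.0913 for SRSF4, so 3 of the 5 calls were left. Leaving out 1 library ended the call of SRSF2 for Normoxia siControl A or C and Hypoxia siControl A or C (edgeR, adjusted p 0.0787 to 0.109), and that of SRSF11 for Normoxia siControl B or C and Hypoxia siControl A or B (0.0681 to 0.0757). For SRSF4 any of the 6 siControl libraries, Normoxia siARNT A or Hypoxia siARNT B ended it (0.0555 to 0.0989).

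In SRSF1 and SRSF3 every hypoxic library was under every normoxic one, and neither gene passed the main test. The difference of SRSF1 was -0.18 ± 0.07 (edgeR, adjusted p = 0.0741), and that of SRSF3, the smallest member of the family and an export adaptor, was -0.17 ± 0.06 (adjusted p = 0.0551). SRSF3 passed with the letter as a replicate block across all groups (edgeR, adjusted p = 0.0413), and with scaling by total counts both SRSF3 (0.0229) and SRSF1 (0.0415) passed. The differences of SRSF5, SRSF6 and SRSF9 were 0.03, -0.02 and 0.09. With an offset for GC content in the fit, 2 of the 10 genes were called, SRSF10 and SRSF11, and SRSF7 was at -0.12 (adjusted p = 0.337).

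In siARNT cells hypoxia gave 1 call among the 10 genes, where 4.09% of all tested genes were called (2.21% higher, 1.89% lower). SRSF2 was at 255, 224 and 266 CPM in normoxia and at 204, 205 and 185 CPM in hypoxia. The 2 sets did not overlap, and the gene fell by 0.33 ± 0.08 on the log2 scale (edgeR, adjusted p = 0.0399). The call rests on the whole design: the adjusted p was 0.24 when only these 6 libraries were fitted, and leaving out any one library other than Normoxia siARNT B or Hypoxia siControl B gave an adjusted p of 0.0517 to 0.116. SRSF1 was at -0.19 ± 0.07 (adjusted p = 0.145), almost the value it had in siControl cells. The other 8 genes lay between -0.12 and 0.06. The libraries of SRSF1, SRSF2 and SRSF7 did not overlap, all lower in hypoxia, where 22.2% of all genes had no overlap. SRSF11 was at 168, 143 and 182 CPM in normoxia and at 164, 160 and 161 CPM in hypoxia, so its libraries overlapped here.

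The interaction term tests whether the hypoxia difference itself differed between siARNT and siControl. None of the 10 genes passed in edgeR's test (4.69% of all genes did, 2.49% with a positive and 2.19% with a negative term), none passed in DESeq2, and 2 had an unadjusted p under 0.05. These were SRSF10, at 0.34 ± 0.11 (adjusted p = 0.0912), and SRSF11, at -0.35 ± 0.12 (adjusted p = 0.136). SRSF11 was called with the offset for GC content (-0.49, adjusted p = 0.0137) and without Normoxia siARNT B (-0.43, adjusted p = 0.0383). SRSF10 was called with scaling by total counts (0.39, adjusted p = 0.0244) and without Hypoxia siARNT C (0.395, adjusted p = 0.0458).

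**Figure D2:**
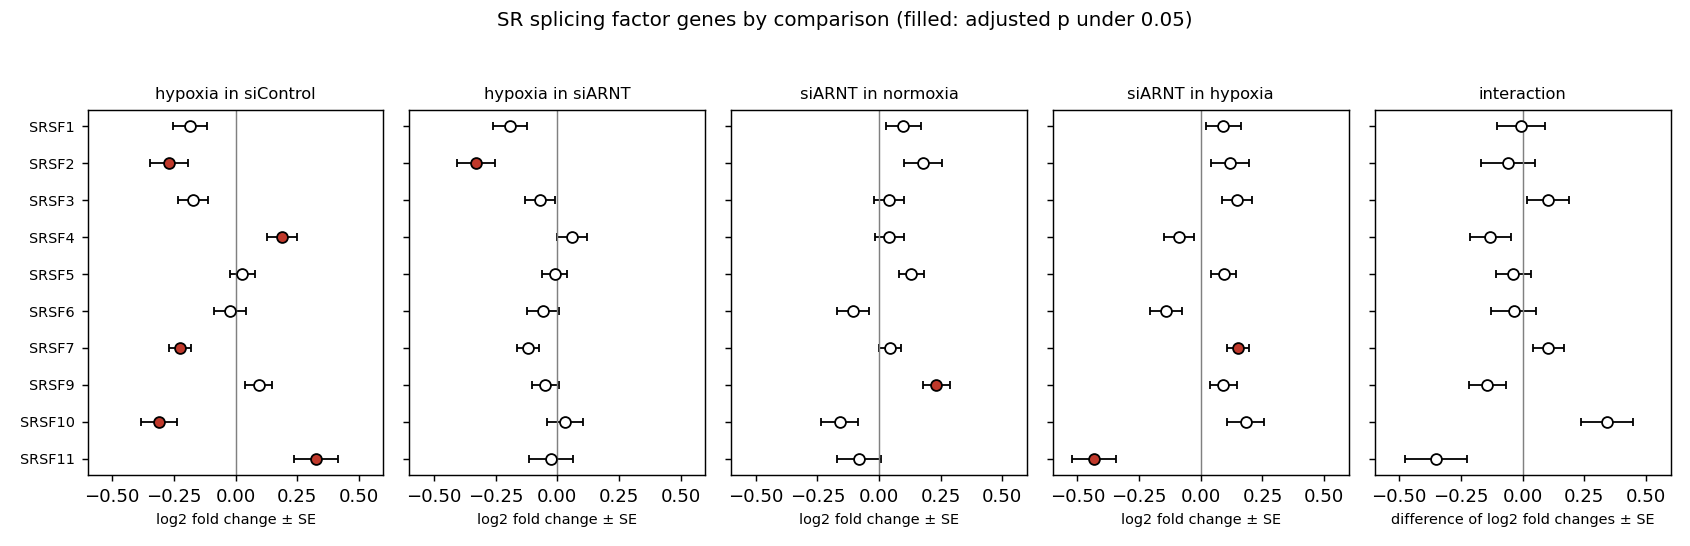
The log2 fold change with its standard error for each of the 10 SR genes in the 5 comparisons, with filled points for an adjusted p under 0.05 in edgeR's test. In hypoxia in siControl 5 points are filled and in the interaction none is, and SRSF11 lies at 0.33 in hypoxia in siControl and at -0.43 for siARNT in hypoxia.

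Depletion of ARNT in normoxia changed 1 of the 10 genes, where 20.2% of all genes were called (9.42% higher). SRSF9, whose arginine-serine domain is short, was at 84.1, 85.4 and 82.5 CPM with siControl and at 96.8, 103 and 96.4 CPM with siARNT. It rose by 0.23 ± 0.05 on the log2 scale (edgeR, adjusted p = 0.0114) with no overlap, though the adjusted p was 0.0613 without Normoxia siControl A and 0.0745 without Normoxia siControl C. SRSF5 was also higher and SRSF10 lower without overlap, so 3 genes had none, where 46.5% of all genes had none (23.2% higher). The other 9 differences ran from -0.16 for SRSF10 to 0.18 for SRSF2. This comparison depended most on base composition. With the offset for GC content SRSF1, SRSF2, SRSF3, SRSF5, SRSF7 and SRSF9 were called, all higher, and SRSF2 was at 0.34 (edgeR, adjusted p = 0.00101). The uncalled differences of SRSF6, SRSF10 and SRSF11, at -0.105, -0.16 and -0.08, turned to 0.113, 0.06 and 0.131 with that offset. The GC slope of Normoxia siARNT B was 0.40, and those of the other 5 libraries of this comparison were -0.20 to 0.00.

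In hypoxia ARNT depletion changed 2 of the 10 genes, where 29.1% of all genes were called (14.4% higher, 14.7% lower). SRSF11 was at 164, 160 and 161 CPM with siARNT against 223, 231 and 200 CPM with siControl, and it fell by 0.43 ± 0.09 on the log2 scale (edgeR, adjusted p = 0.00312). SRSF7 was at 175, 172 and 173 CPM against 154, 158 and 157 CPM and rose by 0.15 ± 0.04 (edgeR, adjusted p = 0.0267). Neither gene's groups overlapped, nor did those of SRSF1, SRSF3, SRSF5, SRSF10 (higher) and SRSF6 (lower), 7 of 10 genes where 40.3% of all genes had no overlap. These libraries of hypoxia with siControl are the same that entered the hypoxia comparison, so the opposite directions of SRSF7 and SRSF11 in the 2 comparisons share them. SRSF11 kept its call without any 1 of the 12 libraries, and that of SRSF7 was lost without any one of Normoxia siControl A or C, Hypoxia siControl A, B or C, or Hypoxia siARNT A or B (edgeR, adjusted p 0.0582 to 0.115). With the GC offset SRSF7 was at 0.185 (adjusted p = 0.125), and SRSF3 and SRSF10 were called, at 0.195 and 0.226. With scaling by total counts, which moved the median of all genes from 0.02 to 0.10, 6 of the 10 genes were called.

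By the rule for genes of like pattern, the tested gene most correlated with SRSF2 in log2 CPM over the 12 libraries was CLIP4 (Pearson's r = 0.965), that for SRSF11 was CREBZF (0.99) and that for SRSF10 was PARG (0.969). These are the 3 SR genes with the widest range of group means, and the libraries share depth and base composition effects.

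Poison events were measured by percent spliced in (PSI), the share of the reads at an event that carry the inclusion or retention form. For a cassette exon the inclusion form is the mean of the reads on its upstream and downstream junctions, and for an intron it is the coverage of the intron against the reads that splice it out. None of the 88 tested SR events was called in any of the 5 comparisons, by edgeR for junctions or limma for introns. Among all 35823 tested events 0.0167% were called for hypoxia in siControl, 0.0112% for hypoxia in siARNT, 0.00558% for siARNT in normoxia, 0.0195% for siARNT in hypoxia and 0.0112% in the interaction. The other test of each kind (limma for junctions, edgeR for introns) called none of the SR events either. An unadjusted p under 0.05 was reached by 8, 2, 6, 9 and 0 of the 88 events, in that order, and the background share was 5.45%, 4.02%, 6.92%, 6.39% and 4.02%. The values below are therefore descriptions of libraries. On simulated counts for hypoxia in siControl the junction test recovered 98% of events changed by 2 on the log2 scale of the ratio and 0% of those changed by 0.5. Changes were simulated only in well-read events of intermediate inclusion, with a chosen spread between libraries. Several poison exons lie at lower inclusion and the poison introns were tested by limma, so these rates cannot be carried over to the poison events. Most log2 ratios of the poison events lie between 0 and 1.22 in size.

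Part of the definition of the 14 poison events was set after values were seen, so their counts are descriptions only. Of the 14, 13 had a higher mean PSI in hypoxia than in normoxia in siControl cells, as did 17217 of all 35823 tested events. The 5 poison events whose libraries did not overlap were all higher (6.22% of all tested events were higher without overlap and 6.46% lower). With siARNT in hypoxia, 11 of the 14 had a lower mean than with siControl in hypoxia, and 16529 of all 35823 tested events had a higher one. The 7 poison events whose libraries did not overlap were all lower (7.41% of all tested events, with 5.32% higher). The median difference of the 14 events was 1.15 points for hypoxia in siControl and -3.22 points for siARNT in hypoxia, while over all tested events it was 0 and -0.08 points. Both comparisons use the same 3 libraries of hypoxia with siControl. For hypoxia in siARNT the median was 0.07 points with 1 event without overlap, the SRSF2 exon, which was higher (5.06% of all events). For siARNT in normoxia the median was -1.51 points, and 4 events were lower without overlap (9.09% of all events, with 6.2% higher). Several events share reads: the 2 SRSF7 exons use the same downstream and the same skipping junction, and the 2 SRSF11 exons share a skipping junction. The junction that splices out the 875-nt SRSF7 intron is that same skipping junction, and the intron spans both exons. The 259-nt SRSF5 intron lies inside the 1215-nt one, and the 2 SRSF7 alternative 5′ ends share a junction. Counts over the 14 events are thus not counts of independent measurements.

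**Figure D3:**
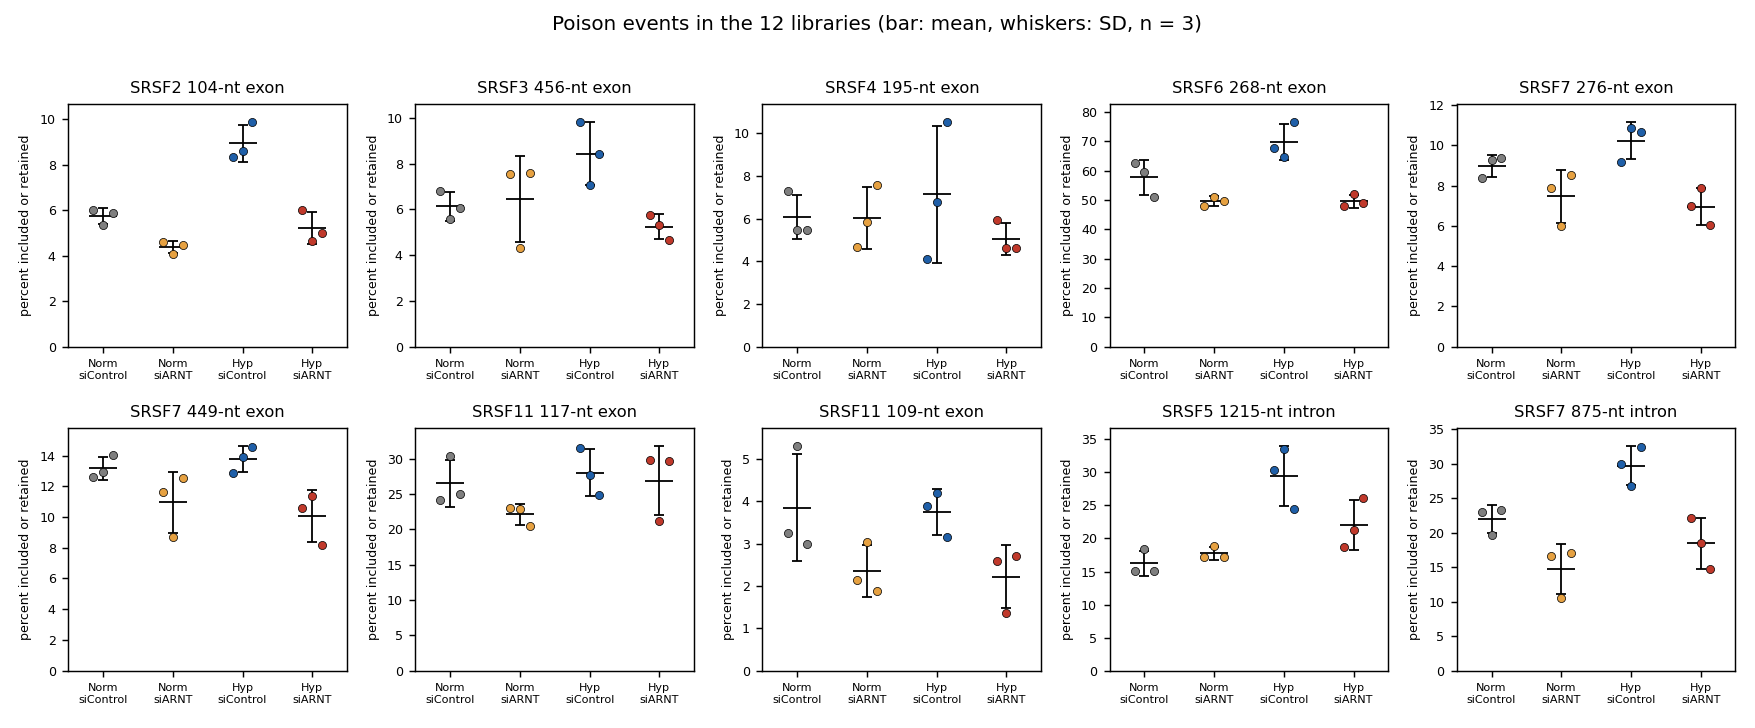
Percent included (exons) or retained (introns) for 10 poison events in the 12 libraries, with points for libraries, a bar for the mean and whiskers for the SD (n = 3). The SRSF2 exon lies at 8.34% to 9.88% in hypoxia with siControl and at 4.08% to 6.02% in the other 9 libraries.

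The 104-nt exon of SRSF2 had a PSI of 6.01%, 5.37% and 5.87% in normoxia with siControl and of 8.34%, 8.63% and 9.88% in hypoxia with siControl. With siARNT it was 4.62%, 4.08% and 4.46% in normoxia and 6.02%, 4.67% and 4.99% in hypoxia. The libraries of hypoxia with siControl stood above all others, by 3.20 points over normoxia (adjusted p = 0.984, edgeR) and by 3.73 points over siARNT in hypoxia (adjusted p = 0.763, edgeR). The order was the same on either junction alone: the upstream junction gave a mean of 3.25% in normoxia and 6.66% in hypoxia with siControl, and the downstream junction gave 8.12% and 11.1%. An alternative 3′ splice site of the same gene that is used only by noncoding transcripts took 3.22%, 3.25% and 3.29% of reads in normoxia with siControl and 6.05%, 7.20% and 6.72% in hypoxia with siControl. With siARNT in hypoxia it took 2.66% to 3.57%. These are the reads of the exon's upstream junction set against the same skipping junction, so the site and the exon are 1 measurement and not 2. The intron of 995 nt, whose spliced and retained forms both occur in coding transcripts and which is the most deeply read tested event of SRSF2, was retained at 18.9% to 21.3% in normoxia and 26.2% to 30.4% in hypoxia with siControl. With siARNT it was at 11.3% to 15.4% and 16.3% to 21.5%. This intron spans the 104-nt exon, whose reads count in its coverage.

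The 268-nt exon of SRSF6 had the largest difference of the cassette exons. SRSF6 belongs with SRSF4 and SRSF5 to the branch of the family that carries a pair of RNA recognition motifs and a long arginine-serine domain. Its PSI was 62.6%, 59.6% and 51.0% in normoxia and 67.9%, 64.8% and 76.6% in hypoxia with siControl. With siARNT it was 47.8%, 51.2% and 49.7% in normoxia and 47.8%, 52.0% and 48.9% in hypoxia. In hypoxia the siARNT libraries were 20.2 points lower, all under all siControl libraries (log2 ratio -1.22 ± 0.26, adjusted p = 0.385, edgeR). The level itself depends on the junction. Over the 12 libraries the upstream junction had 0 to 6 reads, the downstream junction 68 to 172 and the skipping junction 15 to 78. From the upstream junction alone the mean PSI in hypoxia was 10.3% with siControl and 3.40% with siARNT, and from the downstream junction alone it was 81.7% and 65.9%. The PSI of this exon can therefore not be read as the share of SRSF6 transcripts that carry it.

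The 456-nt exon of SRSF3 had a PSI of 6.82%, 5.57% and 6.04% in normoxia and 9.81%, 7.08% and 8.42% in hypoxia with siControl. With siARNT in hypoxia it was 5.75%, 5.33% and 4.66%, under all 3 siControl libraries by a mean of 3.19 points (adjusted p = 0.824, edgeR). In normoxia the siARNT libraries were at 7.53%, 4.30% and 7.58% and overlapped those of siControl. Here the downstream junction was the more read, with 806 reads in all against 370 on the upstream junction. For siARNT in hypoxia the downstream junction alone gave -5.13 points without overlap, and the upstream junction alone gave -1.02 points with overlap. The 195-nt exon of SRSF4 was at 4.12%, 6.77% and 10.5% in hypoxia with siControl, and its groups overlapped in every comparison. It had 0 to 6 reads on its upstream and 5 to 19 on its downstream junction, so no difference could be resolved at this depth. Its second poison event, 3 exons included together, had mean PSI values of 23.7% to 27.0% over the 4 groups.

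SRSF7 had 5 poison events at 2 places. In the intron that holds its poison exons, the 276-nt exon was at 8.35%, 9.25% and 9.35% in normoxia and 9.16%, 10.9% and 10.7% in hypoxia with siControl, with overlap. With siARNT in hypoxia it was at 6.99%, 7.87% and 6.02%, a difference of -3.26 points without overlap (adjusted p = 0.823, edgeR). The 449-nt form was at 12.9%, 13.9% and 14.6% with siControl and 10.6%, 11.4% and 8.19% with siARNT in hypoxia. The PSI of the 875-nt intron (chr2:38748654-38749528) was 23.1%, 19.7% and 23.3% in normoxia and 30.0%, 26.7% and 32.4% in hypoxia with siControl. With siARNT it was at 16.6%, 10.5% and 17.0% in normoxia and 22.1%, 18.5% and 14.8% in hypoxia. Coverage of this intron takes in reads of the 2 exons, so the PSI does not measure retention of the whole intron alone. Hypoxia with siControl was the highest group, and the difference to siARNT in hypoxia was -11.3 points (limma, adjusted p = 0.415). The downstream junction that both exons share had 16 to 32 reads per library, against 72 to 198 and 107 to 321 on their upstream junctions. On the downstream junction alone the mean was 3.75% in normoxia and 3.52% in hypoxia with siControl, so the higher hypoxic mean of these 2 exons was found on the upstream junctions only. For siARNT in hypoxia the difference was -0.95 points on the downstream junction, with overlap. It was -5.09 points (276 nt) and -5.6 points (449 nt) on the upstream junctions, without overlap. The alternative 5′ ends of 33 and 24 nt had group means of at most 0.344% and 6.33%.

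SRSF5 had retained introns, as SRSF7 did, and among the genes with poison events it alone had no poison cassette exon. No stop codon is annotated in the transcripts that retain the SRSF5 introns. The 1215-nt intron of SRSF5 (chr14:69769252-69770466) had a PSI of 15.2%, 18.5% and 15.0% in normoxia and of 30.4%, 33.5% and 24.5% in hypoxia with siControl. The coverage of this intron takes in sequence that is exonic in transcripts that splice out only its first 259 nt. The hypoxic libraries were higher by 13.2 points, with no overlap, and the log2 ratio of 1.102 ± 0.269 had the smallest adjusted p of the 88 events in this comparison (limma, adjusted p = 0.247). With siARNT it was at 17.1%, 18.9% and 17.2% in normoxia and 18.8%, 21.2% and 26.1% in hypoxia, and these overlapped in the highest normoxic and the lowest hypoxic library. The gene's total count did not follow, differing by 0.03 ± 0.05 on the log2 scale in the same comparison. The 259-nt intron that starts at the same 5′ splice site had coverage plus junction reads of 56.1 or more in each library and a PSI of 89.2% to 98.3%. It lies inside the 1215-nt intron, and its coverage is set only against reads that splice out the 259 nt. Its PSI is therefore not the share of SRSF5 transcripts that retain it.

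SRSF11, whose gene count was called for hypoxia in siControl and for siARNT in hypoxia, has poison exons of 117 and 109 nt. The annotated transcript with the 109-nt exon has no annotated stop codon. The 117-nt exon was at 24.2%, 30.3% and 25.1% in normoxia and 31.5%, 27.6% and 24.9% in hypoxia with siControl, and at 29.8%, 21.2% and 29.6% with siARNT in hypoxia. Only in normoxia were the siARNT libraries (23.1%, 22.9% and 20.4%) all under those of siControl. The upstream junction of this exon had 8 to 28 reads in a library and the downstream junction 67 to 163. In normoxia the upstream junction alone gave a mean of 8.56% with siARNT and 7.08% with siControl. The downstream junction alone gave 32.2% and 39.2%, so both the level and the direction depended on the junction. The 109-nt exon was at 3.883%, 4.202% and 3.145% in hypoxia with siControl and at 2.583%, 1.361% and 2.703% with siARNT in hypoxia. All siARNT libraries were lower, a difference of -1.53 points (adjusted p = 0.948, edgeR), and on the upstream junction alone the difference was -2.71 points, also without overlap. Its reads were few, with 4 to 13 on the upstream and 0 to 4 on the downstream junction in a library.

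**Figure D4:**
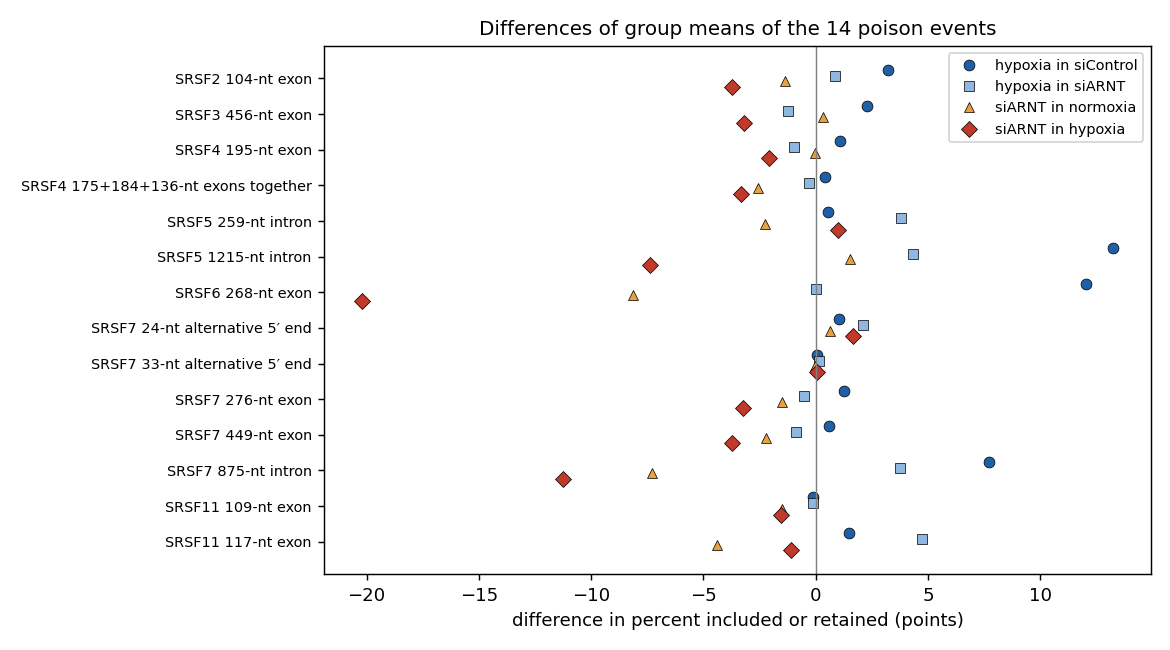
Difference between group means in percent included or retained for the 14 poison events, with 1 symbol for each of 4 comparisons. The circles (hypoxia in siControl) lie above 0 for 13 events, up to 13.2 points for the SRSF5 intron, and the diamonds (siARNT in hypoxia) lie below 0 for 11 events, down to -20.2 points for the SRSF6 exon.

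The 74 other tested SR events were mostly near full or near 0 inclusion. In SRSF1 an alternative 3′ splice site took 2.75%, 1.71% and 2.63% of reads in normoxia with siControl and 0.95%, 0.67% and 1.30% with siARNT, and the adjacent 203-nt exon, whose skipped form is not annotated, was at 94.7% to 96.7% and 97.5% to 98.7%. The reads of the alternative site are those that skip this exon, set against a junction of the exon itself, so both events, and a 187-nt form of the exon, are 1 measurement. Neither set of libraries overlapped, and neither event was called (adjusted p = 0.586 and 0.471, edgeR). Leaving out events with a form at 0 reads in some libraries and at 10 or more in another, a choice made after seeing the data, gave an adjusted p of 0.0395 for both (edgeR), with 0.391% of all events called for siARNT in normoxia. The same choice called the alternative 3′ splice site of SRSF2 for siARNT in hypoxia (edgeR, adjusted p = 0.0137), where 0.269% of all events were called. The 36-nt coding exon of SRSF7 was at 85.5% to 87.4% with siControl and 79.9% to 84.2% with siARNT in normoxia, without overlap. The deepest tested events of SRSF9 and SRSF10 were alternative 3′ sites, 15 and 3 nt apart, with group means of 3.26% to 4.53% and 19.8% to 23.3%. The deepest tested event of SRSF11, a 3-nt alternative, had group means of 34.3% to 37.4%, and that of SRSF7, a 9-nt alternative, of 4.56% to 5.62%. An 87-nt coding exon of SRSF3 showed the all-or-none kind of count: no read skipped it in 8 libraries, and its PSI was 95.4% to 96.6% in the other 4, all hypoxic. For the deepest tested events of SRSF5 and SRSF6 the rarer form was likewise at 0 in some libraries, and its group means stayed at or under 0.845% and 1.04%. The poison candidate of SRSF5 with the most reads, an exon of 1359 nt whose skipped form is not annotated, was of the same kind, with 97.8% or more in all libraries.

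The SR proteins depend on kinases for their activity. Of 9 genes for SR kinases, the phosphatase subunit PPP1CA and the nuclear importer TNPO3, 3 rose and 2 fell with hypoxia in siControl (25.3% of all genes called), with a median of 0.18. The nuclear kinases CLK1, CLK3 and CLK4, which release SR proteins from speckles, rose by 0.76 ± 0.08, 0.75 ± 0.15 and 0.60 ± 0.10 on the log2 scale (edgeR, adjusted p = 5.83e-05, 0.00392 and 0.000804). The cytoplasmic kinases SRPK1 and SRPK2, which prime SR proteins for import, fell by 0.37 ± 0.09 and 0.32 ± 0.08 (edgeR, adjusted p = 0.0114 and 0.0117). With siARNT in hypoxia the 3 CLK genes fell, by 0.45, 0.46 and 0.34, and SRPK2 rose by 0.27 (edgeR, adjusted p = 0.00141, 0.0415, 0.0177 and 0.0232). These were 4 of 9 genes, where 29.1% of all genes were called. In siARNT cells hypoxia gave 1 call among the 9, where 4.09% of all genes were called. This was CLK1, which rose by 0.42 ± 0.08 (edgeR, adjusted p = 0.02). CLK4 was at 0.34 ± 0.10 and CLK3 at -0.01 ± 0.15 (edgeR, adjusted p = 0.0678 and 0.981). In the interaction 0 of the 9 genes passed, where 4.69% of all genes did. CLK1, CLK3 and CLK4 were at -0.33 ± 0.12, -0.76 ± 0.22 and -0.25 ± 0.14 there (edgeR, adjusted p = 0.128, 0.0733 and 0.305).

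**Figure D5:**
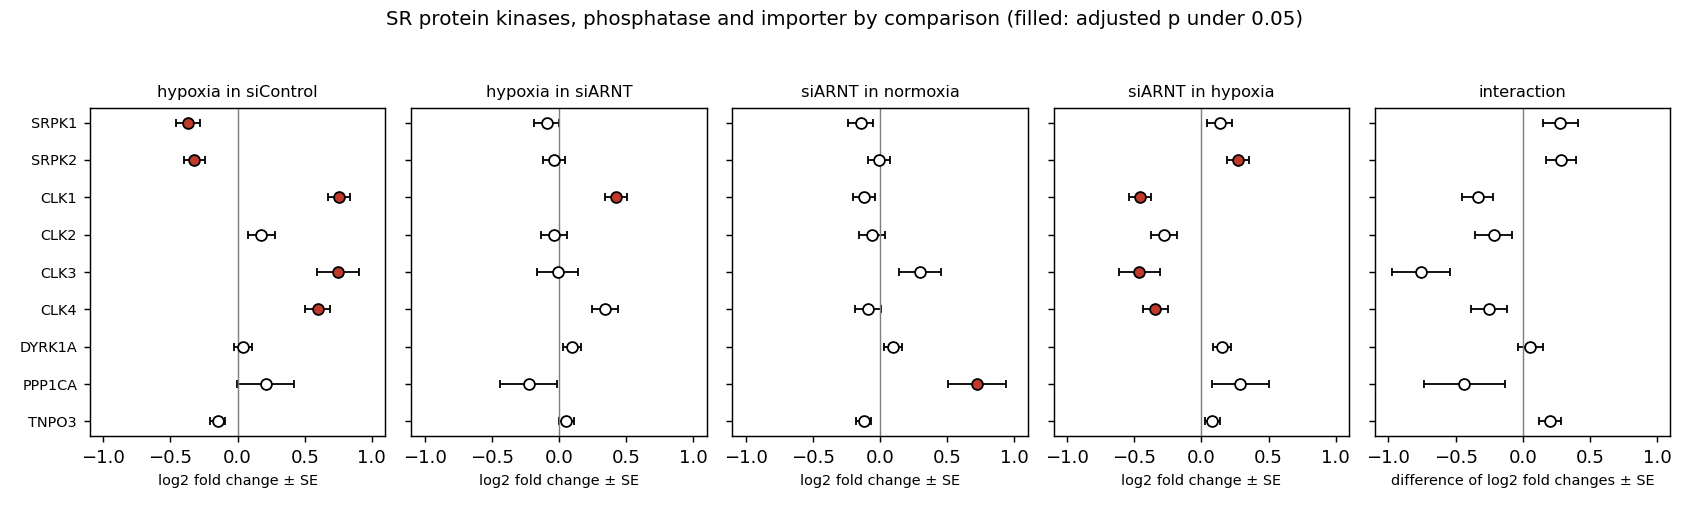
The log2 fold change with its standard error for 9 genes of SR kinases, the phosphatase and the importer in the 5 comparisons, with filled points for an adjusted p under 0.05 in edgeR's test. CLK1, CLK3 and CLK4 lie between 0.60 and 0.76 for hypoxia in siControl, and SRPK1 and SRPK2 lie at -0.37 and -0.32.

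Of 13 tested genes of nonsense-mediated decay, 1 rose and 3 fell with hypoxia in siControl (median -0.10), where 25.3% of all genes were called, 10.4% higher and 14.9% lower. The exon junction components MAGOH and EIF4A3 fell by 0.45 ± 0.06 and 0.29 ± 0.05 (edgeR, adjusted p = 0.000159 and 0.00135), SMG8 fell by 0.35 ± 0.06 and SMG6, the endonuclease, rose by 0.36 ± 0.11 (edgeR, adjusted p = 0.00193 and 0.0278). With siARNT in hypoxia MAGOH and EIF4A3 rose, by 0.27 each, and SMG8 fell by 0.23 (edgeR, adjusted p = 0.0036, 0.00172 and 0.0202), 3 of 13 genes where 29.1% of all genes were called. SMG8 also fell with siARNT in normoxia, by 0.30, and with hypoxia in siARNT cells, by 0.27 (edgeR, adjusted p = 0.00696 and 0.0418). It was the 1 call of the 13 genes in each, where 20.2% and 4.09% of all genes were called. UPF1, the central helicase of the pathway, was at 0.02 ± 0.21 for hypoxia in siControl. Among 10 tested SR-like and SR-related genes, TRA2B, which activates exons together with SR proteins, fell with hypoxia in siControl by 0.19 ± 0.06 (edgeR, adjusted p = 0.0291) and was the only call there. RBM39 fell by 0.31 and SRRM1 rose by 0.20 with siARNT in hypoxia (edgeR, adjusted p = 0.011 and 0.0102). SRRM1 also rose with siARNT in normoxia, by 0.21 ± 0.05 (edgeR, adjusted p = 0.015). It was the 1 call of these 10 genes there, where 20.2% of all genes were called. Among 6 genes for splice-site partners and mRNA export, U2AF1, which reads the 3′ splice site, rose with siARNT by 0.24 in normoxia and by 0.18 in hypoxia (edgeR, adjusted p = 0.0201 and 0.0469). For hypoxia in siControl their adjusted p ran from 0.145 to 0.886 in edgeR's test.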

How the data were processed

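Poly(A) RNA of 12 AsPC-1 libraries was sequenced on 3 lanes, per the labels' protocols. The submitters' processing notes name Trimmomatic, STAR 2.4.2a and GRCh38.p10. The authors deposited raw read counts per gene ID, one table per library; lines that name no gene were left out, and the authors' combined count table was not used. For splicing events the authors deposited junction read counts, intron coverage (a signal, mean reads per base) and the inclusion fraction (PSI), all without normalization, and the event tables' assembly is not given in the sources used here. Gene IDs were matched to GENCODE 29. Genes were tested with edgeR 4.0.16 (quasi-likelihood, TMM, filterByExpr, all 12 libraries, R 4.3.3), junction events with edgeR on inclusion against exclusion reads, and introns with limma 3.58.1 on log2((coverage + 0.5)/(junction reads + 0.5)), each with Benjamini-Hochberg adjustment over all features and a threshold of 0.05. Events needed a mean of 20 reads, 5 in every library and 24 in all of the scarcer form. DESeq2 1.42.0 was an alternative. CPM use TMM library sizes.

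The members and gene lists were chosen with earlier results of these data known. Named are all 10 genes, each called event, and per gene the deepest tested event and the deepest poison event. The requirement that the other form of a poison event be coding was added after values were seen, and the other events named were chosen then too. Libraries of the same letter deviated together between the siControl groups (r of 0.513, 0.743 and 0.499) and between the normoxic groups (0.702, 0.882 and 0.387), though between the normoxic groups another letter correlated as well or better for A (0.764) and C (0.495). With hypoxia with siARNT, letter A correlated with the other groups (0.683 to 0.909), and letters B and C did not (-0.853 to -0.095). Letters B and C of the other groups correlated with another letter of hypoxia with siARNT. The values were 0.871, 0.929 and 0.845 for B and 0.512, 0.857 and 0.703 for C. A replicate block by letter may therefore mispair the libraries of that group, and this was not tested. The tests were tried on simulated data: the gene test recovered 31% of genes changed by 0.3 and 100% of those changed by 1 on the log2 scale for hypoxia in siControl.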

Additional observations from a re-analysis of the deposited data

How the results depend on the processing

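For hypoxia in siControl 5 SR genes were called, and 3 with no filter on low counts, 3 with the replicate block within siRNA, 2 with the GC offset, 4 with the GC offset and the letter as replicate block, 6 with the letter as replicate block or with scaling by total counts, and 7 with only the samples compared. For hypoxia in siARNT the 1 call became 0 with DESeq2's size factors, with the replicate block within siRNA and with only the samples compared, and 2 with the GC offset, with or without the letter as replicate block. For siARNT in normoxia the 1 call became 6 with the GC offset, with or without the block. For siARNT in hypoxia the 2 calls became 6 with scaling by total counts and 1 with no filter. The interaction had 0 calls, and 1 with total counts and 1 with the GC offset, with or without the block. Requiring a log2 fold change of 0.5 left 0 calls in each comparison. Leaving out 1 library gave 2 to 7, 0 to 1, 0 to 1, 1 to 3 and 0 to 1 calls in the 5 comparisons, in the same order as above. The GC offset moved the calls over all genes from 4299, 696, 3431, 4948 and 797 to 6717, 3261, 5279, 7393 and 2685; the cause was not tested. With only the samples compared, 22 genes in all were called for hypoxia in siARNT.

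SR events called were 0 in each comparison. With only the samples compared 1 was called for hypoxia in siControl, an SRSF10 intron. Leaving out all-or-none events, chosen after seeing the data, gave 3 for siARNT in normoxia (0.391% of all events), which are 1 measurement in SRSF1, and 1 for siARNT in hypoxia (0.269%). A quasi-Poisson spread on top of that, also chosen after seeing the data, gave 1 for hypoxia in siControl, 5 for siARNT in normoxia and 3 for siARNT in hypoxia, where 0.192%, 1.19% and 0.73% of all events were called. Those 5 were the SRSF1 events, again 1 measurement, and overlapping forms of 36 and 56 nt of 1 SRSF7 exon. Those 3 were the SRSF2 104-nt exon (log2 ratio -0.81, adjusted p = 0.0151, edgeR), the alternative 3′ splice site that is 1 measurement with it, and the SRSF6 268-nt exon (-1.18, adjusted p = 0.03, edgeR). No event was called with 1 library left out or with the replicate block.

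Of the genes' fold changes, 22 of 420 changed sign under other settings and 25 of 600 with 1 library left out, none of them called in either fit. The event values that changed sign with 1 library left out were all uncalled. For hypoxia in siControl the log2 ratio ran from -0.13 to 0.52 for the SRSF4 195-nt exon, from -0.10 to 0.20 for the SRSF11 109-nt exon and from -0.005 to 0.25 for the SRSF11 117-nt exon. For siARNT in hypoxia it ran from -0.21 to 0.125 for the SRSF11 117-nt exon.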
